A study of Arabidopsis thaliana with 9 samples.

Results

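Five-prime RNA ends at candidate miRNA slice sites were examined for 5 nuclear genes of photosynthesis in Arabidopsis: LHCB1.3 (AT1G29930), LHCB4.1 (AT5G01530), PSBQ2 (AT4G05180), PSAG (AT1G55670) and CA2 (AT5G14740). All lines at these loci were taken, whatever miRNA was named, which gave 51 of 3041 lines, 6 of 1662 sites and 5 of 1508 loci. The loci were selected on their slice-site signal, expressed as RPM, that is reads scaled to library size, which was known from these libraries beforehand. This signal is therefore a description, and the tests on it are no independent evidence. The rule had no threshold. The 9 libraries were made by nanoPARE, which captures 5′ ends of RNA, among them the ends of the 3′ fragments that a miRNA-guided cut leaves behind. The plants were wild-type Col-0 seedlings, taken whole at an age of 7 days from a cycle of 16 h light and 8 h dark, in 3 groups of 3 biological replicates. Recovery seedlings were heated to 37°C for 1 h and kept for a further 2 h at 22°C, HS (heat stress) seedlings were heated to 37°C for 1 h, and Control seedlings were not heated. In such bulk RNA, fewer cells of a type and less RNA per cell cannot be told apart.

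In the chloroplast, chlorophyll-binding antenna proteins collect light and pass its energy to the photosystems, which drive electrons from water to ferredoxin. LHCB1.3 is a protein of the major, trimeric antenna of photosystem II, and LHCB4.1 is the minor antenna protein CP29 that links this antenna to the core. PSBQ2 is an extrinsic subunit of the oxygen-evolving complex on the lumen side of photosystem II, PSAG is a membrane subunit at the edge of photosystem I, and CA2 is a beta carbonic anhydrase, an enzyme that interconverts CO2 and bicarbonate. A miRNA bound to ARGONAUTE guides a cut in the target between the bases that face miRNA bases 10 and 11, and plant targets that are cut efficiently pair with nearly all of the miRNA.

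The miRNAs named at the 6 sites are shown first, with the seed (bases 2 to 8) in capitals, because every site was attributed to a different one. Sequences are from RefSeq, TAIR10.1.
miR842: uCAUGGUCagauccgucaucc
miR5662: aGAGGUGAccauuggagaug
miR8171: aUAGGUGGgccagugguagga
miR157d: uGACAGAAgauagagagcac
miR159b-5p: gAGCUCCUugaaguucaaugg
miR5658: aUGAUGAUgaugaugaugaaa
No seed was shared by any pair of them. miR157 is known for its SPL transcription factor targets, miR159b-5p is the arm opposite to the one that targets MYB factors, and miR5658 is built of repeats of the triplet AUG.

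The stretches of the 5 transcripts that pair best with these miRNAs follow, and the capitals mark the target bases that face miRNA bases 11 and 10, between which a guided cut would fall.
LHCB1.3 site: tggtacggaTCtgaccgtgt
LHCB4.1 site: cgtcttgcgaTGgtcgccttc
PSBQ2 site: tccttccggtGGcctacctgg
PSAG site: ctgttctctATctctgttt
CA2 site 1243: cctttgagctTTgggagctc
CA2 site 1342: catcatcgtcGTcatcatcat
In TAIR10.1, the LHCB1.3 site lies at chr1:10478218-10478237 on the plus strand, within the coding sequence of its single exon. The LHCB4.1 site lies at chr5:210109-210129 on the plus strand, in coding exon 2 of 2. The PSBQ2 site is on the minus strand and crosses the first splice junction, with chr4:2672873-2672889 in exon 1 and chr4:2672632-2672635 in exon 2 of 4, all of it coding. The PSAG site lies at chr1:20802787-20802805 on the minus strand, in the 3′ UTR of its single exon. Both CA2 sites lie on the plus strand in the 3′ UTR, exon 10 of 10, at chr5:4762330-4762349 and chr5:4762429-4762449. The 6 sites were thus split into 3 in coding sequence and 3 in 3′ UTRs, and they are drawn in the map of the transcripts.

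**Figure D1:**
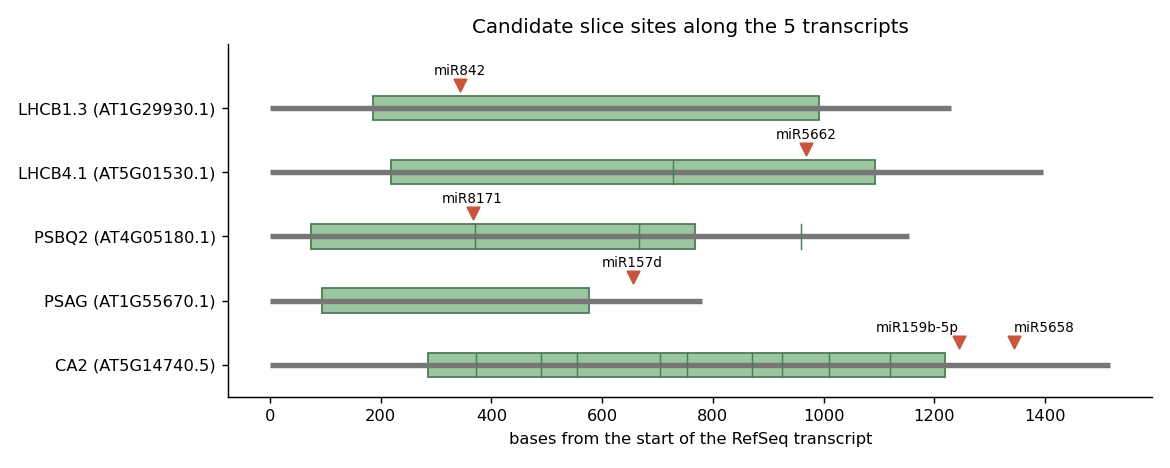
The 5 RefSeq transcripts to scale, in bases from the transcript start (horizontal axis): grey lines are the transcripts, green boxes the coding sequences, thin vertical lines the ends of exons, and red triangles the matched slice positions with the miRNA named for each. The LHCB1.3, LHCB4.1 and PSBQ2 sites fall in coding sequence, and the PSAG site and both CA2 sites after it.

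Mismatches were frequent in these duplexes. The deposited Allen score, a penalty for mismatches where 0 is a perfect duplex, was 3.5 at CA2 position 1342, 4.5 at LHCB1.3 and 5.5 at the other 4, with a median of 5.5 over lines, as over the other lines of the lists. The same score computed from the sequences above equalled the deposited one at 4 of 6 sites, and was 6 at LHCB4.1 and 6.5 at PSBQ2. The matched cut lay 1 base after the deposited position at 4 of 6 sites, 121 bases after it at LHCB1.3 and 72 bases after it at LHCB4.1. The cause of these shifts was not tested, and sites keep their deposited positions as names below. The 20 bases that follow each matched cut were found in 0 other genes for all 6 sites, although the CA2 stretch at 1342 itself is also present in AT5G03060, with 10 identical bases after the cut.

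At each of the 6 positions the slice-site signal was smaller than the authors' local background. The study's methods do not state whether that background is a maximum, a sum or a mean of nearby ends. The authors' fold, the slice-site RPM plus 1 over a local background plus 1, ran between 0.0190 and 0.666 in the 51 lines, with a median of 0.155, against 0.806 over the 2990 other lines. It exceeded 1 in 0 of the 51 lines and in 21.8% of the other lines. The authors' adjusted p was between 0.549 and 1.00 in these lines, under 0.05 in 0 of them and in 126 of the other 2990 (4.21%). By these 2 measures no site of the 5 transcripts stood out from its local background. The signal itself, on which the loci were selected, was among the more abundant and most regular of the lists. The median line at the 5 loci held 1.16 RPM, against 0.349 RPM elsewhere, and 4 of the 13 sites listed in all 9 libraries were here. PSAG was listed in 7 libraries, CA2 position 1243 in 8, and the other 4 sites in 9.

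Library totals implied by the value of 1 read ran from 2331769 to 4609739 reads, and 1 read was worth 0.217 to 0.429 RPM. The 5 loci together held 20 to 115 reads per library, so that counting error is large at the small sites, and 0 RPM, set for a library without the site on its list, does not show that there were no reads. Of the green-tissue markers 2 of 8 were listed, RCA and CA1, at a summed 1.95 to 2.47 RPM in Recovery, 0.251 to 7.49 RPM in HS and 2.57 to 5.23 RPM in Control libraries. Of the root markers 0 of 8 were. The lists hold only candidate slice sites, so these marker counts do not show tissue content. In local background at the most regular sites, HS replicate 2 stood apart from the other HS libraries. Over the 13 sites listed everywhere, its log2 local background correlated with r = 0.93 to 0.97 with the Recovery libraries and 0.71 to 0.72 with HS replicates 1 and 3. These 13 sites include 4 of the present ones, and the values of a library share its depth. Over the slice-site signal at 322 sites it was closest to its own group, at r = 0.54 to 0.61, against 0.39 to 0.48 with Recovery. By site, its log2 local background was nearer the Recovery mean than the mean of HS replicates 1 and 3 at 5 of the 6 present sites. Among 69 other sites this held at 34. For the slice-site signal it held at 3 of the 6 sites and at 181 of 316 others. Results that turn on HS replicate 2 are given with and without it.

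The antenna genes carried most of the signal in Control seedlings. At LHCB1.3, Recovery replicates 1, 2 and 3 held 0.582, 0.618 and 2.39 RPM, HS replicates 8.17, 3.51 and 4.56 RPM, and Control replicates 9.43, 12.2 and 18.0 RPM. These stand for 2 to 11 reads in Recovery, 14 to 24 in HS and 22 to 57 in Control libraries. Every Recovery library was below every HS library, and every HS library below every Control library. The Recovery mean was 1.195 ± 1.03 RPM, the HS mean 5.41 ± 2.44 RPM and the Control mean 13.2 ± 4.37 RPM (SD, n = 3 each). Ordered by signal, the site ranked 2 or 3 in each Control library and between 6 and 52 in Recovery libraries. In limma over all 322 sites listed in at least 3 libraries, LHCB1.3 fell in Recovery against Control, with a log2 change of −2.75 (SE 0.58, 95% interval −3.96 to −1.53, adjusted p = 0.0187). This call was lost without Recovery replicate 1 (adjusted p = 0.0865), Recovery replicate 2 (0.0794), Control replicate 2 (0.0855) or Control replicate 3 (0.0676), and the log2 change was between −2.51 and −2.78 in those 4 fits. Against Control, HS had a log2 change of −1.17 (limma, adjusted p = 0.347), and Recovery against HS one of −1.58 (adjusted p = 0.186, but −1.80 and adjusted p = 0.0484 without HS replicate 2).

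At LHCB4.1, the minor antenna protein, Recovery replicates held 2.62, 2.16 and 5.21 RPM, HS replicates 10.2, 1.00 and 8.15 RPM, and Control replicates 10.3, 5.23 and 12.3 RPM. The 3 Recovery libraries were below the 3 Control libraries by a narrow margin, with Recovery replicate 3 next to Control replicate 2, while the HS libraries spanned both groups because HS replicate 2 was lowest of all 9. The Recovery mean was 3.33 ± 1.64 RPM, the HS mean 6.45 ± 4.83 RPM and the Control mean 9.28 ± 3.65 RPM (SD, n = 3 each), and without HS replicate 2 the HS mean was 9.18 RPM. No comparison passed at LHCB4.1 in limma, with a log2 change of −1.24 in Recovery against Control (95% interval −2.65 to 0.17, adjusted p = 0.275).

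**Figure D2:**
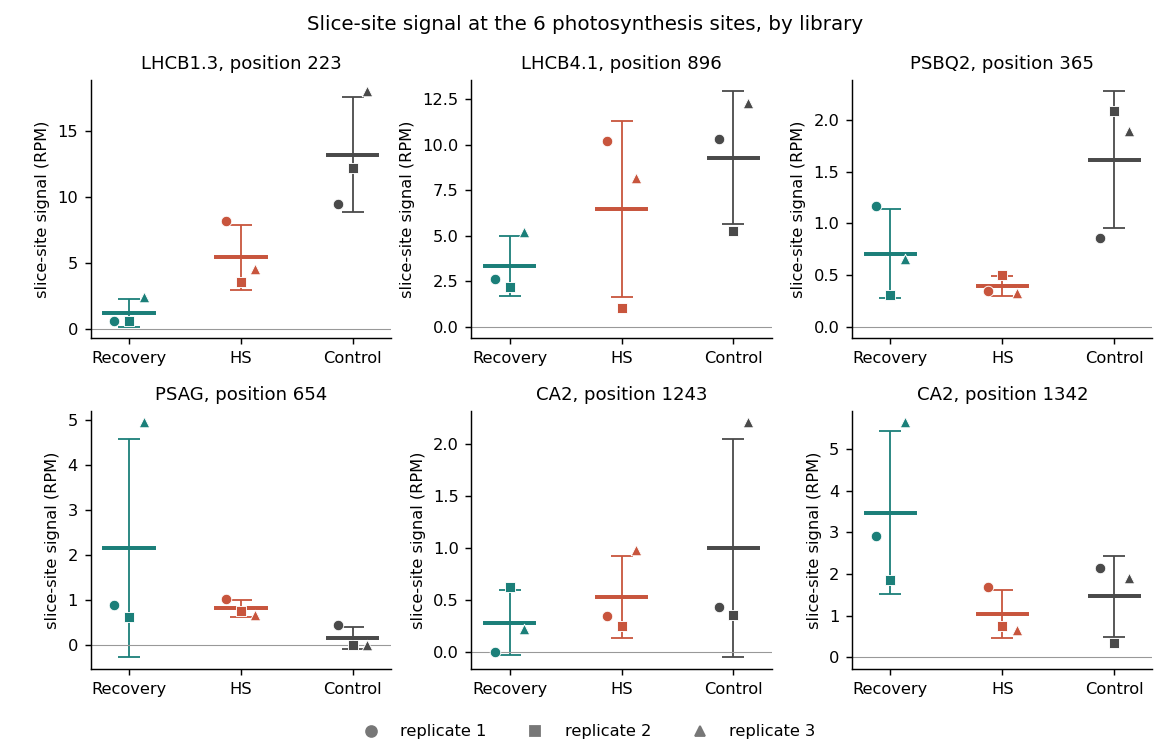
Slice-site signal in RPM (vertical axes, scaled per panel) at the 6 sites, with 1 point per library shaped by replicate number, horizontal bars for group means and error bars of 1 SD (n = 3). LHCB1.3 steps down through Control, HS and Recovery libraries without overlap, whereas at CA2 position 1342 the 3 Recovery libraries, at 1.85 to 5.64 RPM, lie above the 3 HS libraries.

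The 2 photosystem subunits had lower means than the antenna genes in HS and Control, and their log2 changes against Control were opposite in sign, with none called. At PSBQ2, of the oxygen-evolving complex, Recovery replicates held 1.16, 0.309 and 0.651 RPM, HS replicates 0.340, 0.502 and 0.326 RPM, and Control replicates 0.858, 2.09 and 1.89 RPM. All HS libraries were below all Control libraries, and Recovery libraries overlapped with both. Only 1 or 2 reads stood behind each HS value. The log2 change of HS against Control was −0.88 (limma, 95% interval −1.65 to −0.11, adjusted p = 0.236), and that of Recovery against Control −0.61 (adjusted p = 0.337).

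At PSAG, the photosystem I subunit, Recovery replicates held 0.873, 0.618 and 4.95 RPM, HS replicates 1.02, 0.753 and 0.652 RPM, and 1 Control library was listed, replicate 1 at 0.429 RPM, which is 1 read. All heated libraries, Recovery and HS, were above all Control libraries, and Recovery replicate 3 stood far above the rest with a site that ranked 3 in its library. Control replicates 2 and 3 did not list the site and stand at 0, so it passed the filter mainly through heated libraries. The filter thus favoured values above Control in the tests that follow. The log2 change was 1.22 in Recovery against Control (limma, 95% interval 0.32 to 2.12, adjusted p = 0.101, and 0.63 with adjusted p = 0.361 without Recovery replicate 3) and 0.68 in HS against Control (adjusted p = 0.497). Neither was called. Recovery against HS had a log2 change of 0.54 (adjusted p = 0.666), and −0.050 without Recovery replicate 3.

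The pair of sites in the 3′ UTR of CA2, 99 bases apart, differed in level and in pattern. At position 1342, named for miR5658, Recovery replicates held 2.91, 1.85 and 5.64 RPM, HS replicates 1.70, 0.753 and 0.652 RPM, and Control replicates 2.14, 0.349 and 1.89 RPM. Every Recovery library was above every HS library, and HS and Control overlapped. It was the most abundant site of Recovery replicate 3 and the second of Recovery replicate 1, and ranked between 18 and 151 in HS and Control libraries. The Recovery mean was 3.47 ± 1.95 RPM, the HS mean 1.04 ± 0.579 RPM and the Control mean 1.46 ± 0.973 RPM (SD, n = 3 each). The log2 change was 1.08 in Recovery against HS (limma, 95% interval 0.09 to 2.07, adjusted p = 0.362) and 0.86 in Recovery against Control (adjusted p = 0.275). At position 1243, named for miR159b-5p, Recovery replicates held 0, 0.618 and 0.217 RPM, HS replicates 0.340, 0.251 and 0.978 RPM, and Control replicates 0.429, 0.349 and 2.21 RPM. The 3 groups overlapped there, and the log2 change of Recovery against Control was −0.55 (adjusted p = 0.402).

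Over the 6 sites, limma called 0 in HS against Control, where 1.55% of all 322 sites were called lower and 3.42% higher. It called 1 lower and 0 higher in Recovery against Control, against 2.17% and 0.621% of all sites, and 0 in Recovery against HS, against 0.932% lower and 0% higher. At an unadjusted p under 0.05, 1 of the 6 sites passed in HS against Control (51 of all 322), 2 in Recovery against Control (62) and 2 in Recovery against HS (38). In HS against Control, 2 of the 6 sites had all HS libraries below all Control libraries (10.2% of all sites) and 1 had them above (6.21%). In Recovery against Control, 2 were below (15.8%) and 1 above (7.14%). The site above Control in both comparisons was PSAG, which only 1 Control library listed. In Recovery against HS, 1 was below (7.45%) and 1 above (5.59%). The median log2 change of the 6 sites was −0.51 in HS against Control, beside −0.13 over all sites, −0.58 in Recovery against Control, beside −0.15, and 0.0096 in Recovery against HS, beside −0.022. The first 2 of these comparisons share the Control libraries. Rescaling the libraries to the same summed RPM moved the median of all sites in Recovery against Control to −0.016, and moved each of the 6 sites upward. LHCB1.3 was then −2.09 (adjusted p = 0.0441), LHCB4.1 −0.42, PSBQ2 −0.088, PSAG 1.65, CA2 position 1243 −0.31 and CA2 position 1342 1.56, with LHCB1.3 the only one called.

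**Figure D3:**
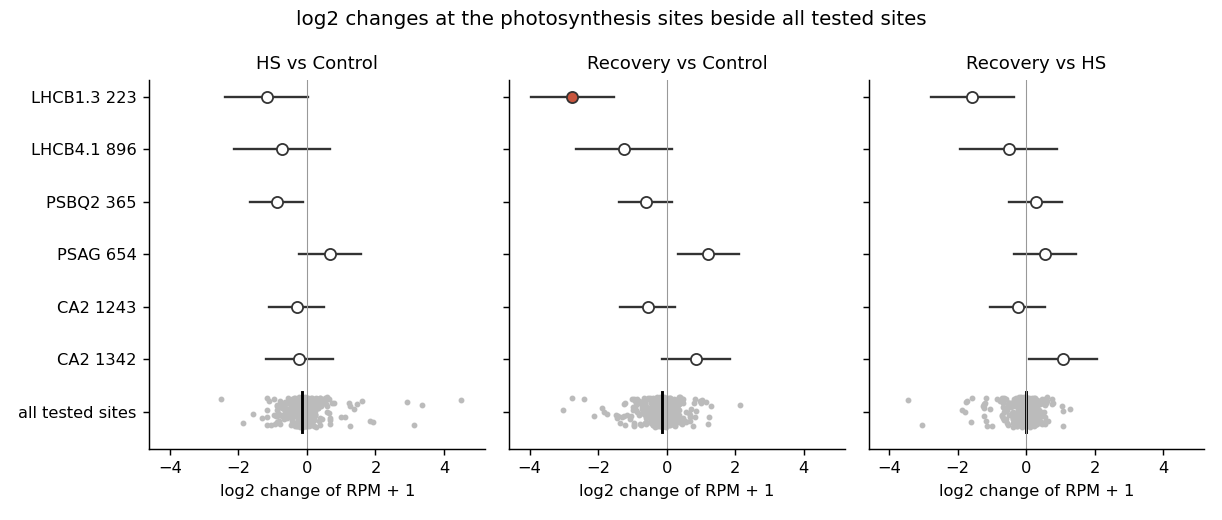
log2 changes of RPM + 1 (horizontal axes) in the 3 comparisons, for the 6 sites with their 95% intervals from limma and for all 322 tested sites as grey points with a black bar at their median. The filled circle marks the call at an adjusted p under 0.05, LHCB1.3 in Recovery against Control at −2.75, and open circles were not called.

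Local background was a second readout of the same transcripts, implied by the authors' fold, and had not been used to pick the loci. It comes from the same transcripts and libraries as the signal that was used, so its level is not independent of that choice. Of all 1662 sites, 1057 were listed in only 1 library, and 0 of those were at the 5 loci. The median local background was 18.9 RPM over the 51 lines of the 5 loci, against 0.858 RPM over the others. It exceeded 5 RPM in 84.3% of the lines of the 5 loci and in 6.99% of the others. At LHCB1.3 it was 8.34, 7.42 and 20.8 RPM in Recovery replicates, 56.8, 7.02 and 58.4 RPM in HS replicates, and 62.3, 85.6 and 72.7 RPM in Control replicates. Recovery libraries were all below Control libraries, and HS replicate 2 lay with Recovery while the other HS libraries lay near Control. The LHCB1.3 local background was a whole number of reads in 3 of 9 libraries, against 43 of the 51 lines of the 5 loci. The cause of the fractional values was not tested. At PSBQ2 it was 2.62, 1.24 and 1.52 RPM in Recovery, 6.47, 1.25 and 11.7 RPM in HS, and 27.9, 9.87 and 3.47 RPM in Control replicates. Recovery was again below Control in every library.

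At CA2 position 1342 the local background went in the opposite direction. It was 27.7, 47.9 and 86.6 RPM in Recovery replicates, 3.38, 25.1 and 7.17 RPM in HS replicates, and 18.0, 4.19 and 12.6 RPM in Control replicates, so that all Recovery libraries were above all others. At LHCB4.1 it was 64.6, 70.5 and 117 RPM in Recovery, 27.2, 58.2 and 30.3 RPM in HS, and 66.5, 23.4 and 91.9 RPM in Control replicates, with Recovery above HS and overlapping with Control. At LHCB4.1 the mean site signal was lowest in Recovery and the mean local background highest there, with neither change called. Within Control, both were lowest in replicate 2 and highest in replicate 3. Within HS, replicate 2 was lowest in site signal and highest in local background. The relation of the site signal to the local background was not tested. At PSAG it was 31.7, 39.2 and 76.8 RPM in Recovery and 24.2, 91.1 and 14.0 RPM in HS replicates, and 18.9 RPM in the single Control library that listed the site. At CA2 position 1243 it stayed between 4.53 and 14.8 RPM in the 8 libraries.

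**Figure D4:**
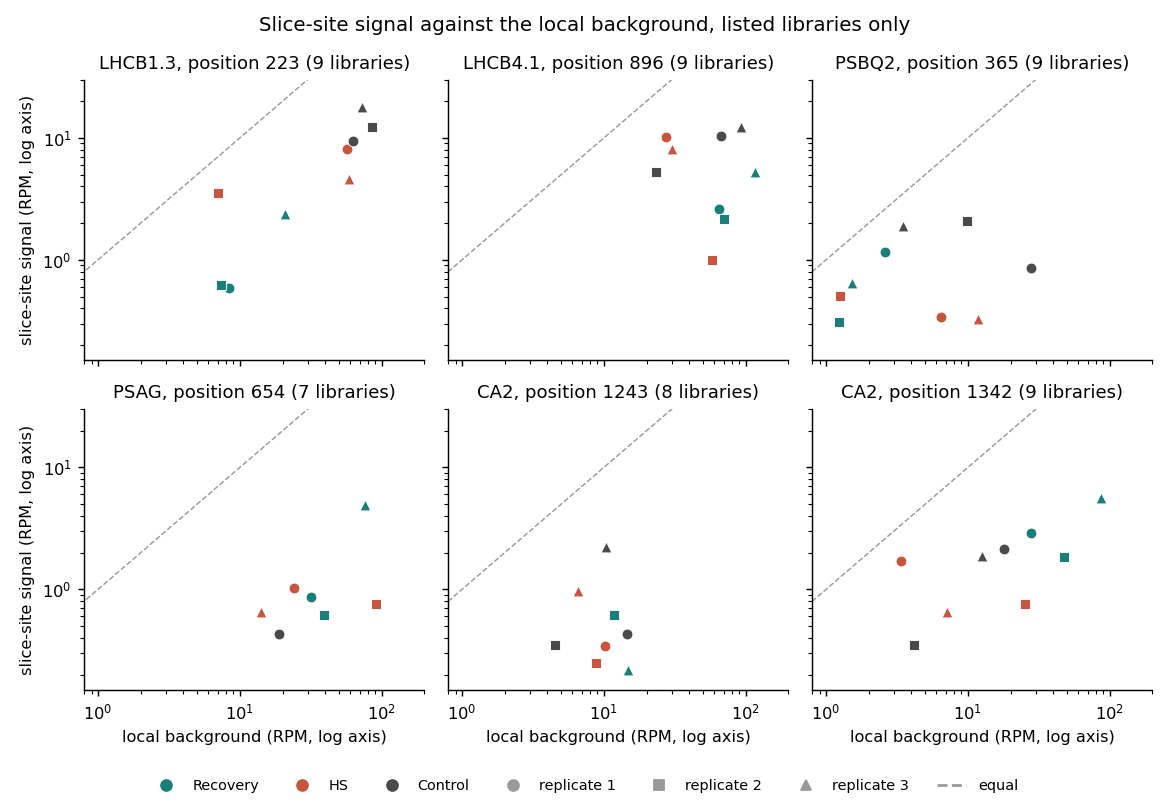
Slice-site signal against local background, both in RPM on log axes, for the libraries that listed each site, coloured by group and shaped by replicate, with a dashed line where both are equal. All 51 points lie below the line, and HS replicate 2 (red square) lies among or beyond the Recovery points at LHCB1.3, with a background of 7.02 RPM, and at PSAG.

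Local background was tested by limma over the 38 sites listed in at least 2 libraries of each group, which left out PSAG. Of the 5 sites tested, 0 were called in HS against Control, where 0% of the 38 were, 0 in Recovery against Control, where 7.89% were called lower and 0% higher (3 and 0 sites, but 2 and 2 with rescaled libraries), and 0 in Recovery against HS, where 5.26% were called lower and 0% higher. The log2 changes in Recovery against Control were −2.63 at LHCB1.3 (adjusted p = 0.104), −2.04 at PSBQ2 (0.106), 2.17 at CA2 position 1342 (0.106), 0.62 at LHCB4.1 (0.538) and 0.51 at CA2 position 1243 (0.426). In Recovery against Control, 2 of these 5 sites were below without overlap (44.7% of the 38) and 1 above (7.89%). In Recovery against HS, 0 were below (21.1%) and 3 above (15.8%), and in HS against Control 1 was below (26.3%) and 0 above (2.63%). Without HS replicate 2, LHCB1.3 was called lower in Recovery against Control (adjusted p = 0.00407) and against HS (log2 change −2.29, adjusted p = 0.0168), and CA2 position 1342 higher against HS (3.05, adjusted p = 0.0252). In that fit 5 of all 38 sites were called lower and 0 higher in Recovery against Control, and 4 lower and 1 higher in Recovery against HS. The LHCB1.3 log2 change against Control stayed at −2.63 there. Its adjusted p in limma was 0.0819 to 0.246 in the other fits without 1 library. The local background test and its alternatives were chosen after the data had been seen.

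Set against its surroundings, the site signal of LHCB1.3 was 8.92% ± 2.297 of the local background in Recovery, 24.1% ± 22.7 in HS and 18.1% ± 5.82 in Control (SD, n = 3 each). The HS value was 50.0% in replicate 2 and 7.81% and 14.4% in the others. Every Recovery library, at 6.98% to 11.5%, was below every Control library, at 14.3% to 24.8%. At LHCB4.1 the same share was 3.86% ± 0.712 in Recovery, 22.0% ± 18.4 in HS and 17.1% ± 4.70 in Control (SD, n = 3 each), with every Recovery library below every Control library. HS replicate 2, at 1.72%, was below every Recovery library there. How often this share separates Recovery from Control over all sites was not computed, and its numerator is the signal on which the loci were selected. These separations are therefore description only. PSBQ2 had its largest mean share in Recovery, 37.4% ± 10.8, against 16.0% ± 20.8 in HS and 26.3% ± 26.1 in Control (SD, n = 3 each). CA2 position 1243 had 3.37% in the 2 Recovery libraries that listed it, 7.06% ± 6.88 in HS and 10.6% ± 9.48 in Control. CA2 position 1342 had 6.97% ± 3.35 in Recovery, 20.8% ± 25.7 in HS and 11.7% ± 3.34 in Control, and there the Recovery and Control libraries overlapped. PSAG had the smallest shares, between 0.826% and 6.45% in the 7 libraries.

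Summed over the 6 sites, the signal was 8.15, 6.18 and 19.1 RPM in Recovery replicates, 21.8, 6.77 and 15.3 RPM in HS replicates, and 23.6, 20.2 and 36.3 RPM in Control replicates. The 3 Recovery libraries were below the 3 Control libraries, and HS overlapped with both. As a share of all listed RPM it was 7.00% ± 3.86 in Recovery, 5.17% ± 1.68 in HS and 8.41% ± 2.29 in Control (SD, n = 3 each), and these ranges overlapped. LHCB1.3 supplied 10.7% of the summed signal in Recovery, 37.0% in HS and 49.5% in Control, and CA2 position 1342 supplied 31.2% in Recovery, 7.08% in HS and 5.48% in Control. PSAG supplied 19.3% in Recovery, 5.53% in HS and 0.535% in Control, and its Recovery share was 10.4% without Recovery replicate 3. LHCB4.1 supplied 29.9% in Recovery, 44.1% in HS and 34.7% in Control.

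Of 76 nuclear photosynthesis genes taken as a list, 14 had a listed site. Beyond the 5 genes these were 9 of 71, with 11 sites: PSBO2 and PSB28 of photosystem II, PSAE2 of photosystem I, the ferredoxin FD2, ATPC1 and ATPD of the chloroplast ATP synthase, RCA (Rubisco activase), CFBP1 (fructose bisphosphatase) and 3 sites of CA1, another beta carbonic anhydrase. None of the 18 other antenna genes of the list had one. Of the 11 sites 6 were tested, and limma called 0 of 6 in every comparison, at background rates of 4.97%, 2.8% and 0.932% for either direction in HS against Control, Recovery against Control and Recovery against HS.

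CA1 reached the highest site signal of the other genes of the list, 5.45 RPM. The signs of its log2 changes in Recovery against Control differed between sites. None of these slice-site changes was called, and at positions 1175 and 1200 the sign was fixed by the filter. At position 748, named for miR5024-3p, Recovery replicates held 0, 0.309 and 0.868 RPM, HS replicates 5.45, 0 and 3.91 RPM, and Control replicates 2.57, 5.23 and 4.42 RPM. All Recovery libraries were below all Control libraries, with a log2 change of −1.88 (limma, adjusted p = 0.0769), and HS replicate 2 again lay with Recovery. The local background of this site was called lower in Recovery against Control (log2 change −1.32, adjusted p = 0.0248) and against HS (−1.44, adjusted p = 0.0381), but with rescaled libraries neither call held (−0.62, adjusted p = 0.180, and −0.70, adjusted p = 0.169). Each call was also lost in 6 of the 9 fits without 1 library. Against Control these were the fits without Recovery replicate 2 (adjusted p = 0.155), Recovery replicate 3 (0.105), HS replicate 1 (0.0678), HS replicate 3 (0.0720), Control replicate 1 (0.0742) and Control replicate 3 (0.0669). Against HS they were those without Recovery replicate 1 (adjusted p = 0.0524), Recovery replicate 2 (0.216), Recovery replicate 3 (0.146), HS replicate 1 (0.166), HS replicate 3 (0.271) and Control replicate 1 (0.0992). Both other CA1 sites were named for miR5658, as CA2 position 1342 was. Position 1200 held 1.16, 1.24 and 0.651 RPM in Recovery, 0.681, 0.251 and 0.326 RPM in HS, and was listed in no Control library, and position 1175 held 1.16, 0.618 and 0.217 RPM in Recovery, 0.681 RPM in HS replicate 1 and was listed in no other library. The log2 changes in Recovery against Control were 1.00 (adjusted p = 0.0835) and 0.70 (adjusted p = 0.232), and neither was called. Both CA1 sites entered the test only through the heated libraries, so that a value above Control was fixed by the filter. FD2, which accepts electrons from photosystem I, held 0.291, 0.618 and 0.868 RPM in Recovery, 1.36, 0 and 0.652 RPM in HS, and was listed in no Control library (log2 change of Recovery against Control 0.65, adjusted p = 0.267). FD2 too entered the test only through heated libraries, so its value above Control was likewise fixed by the filter.

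**Figure D5:**
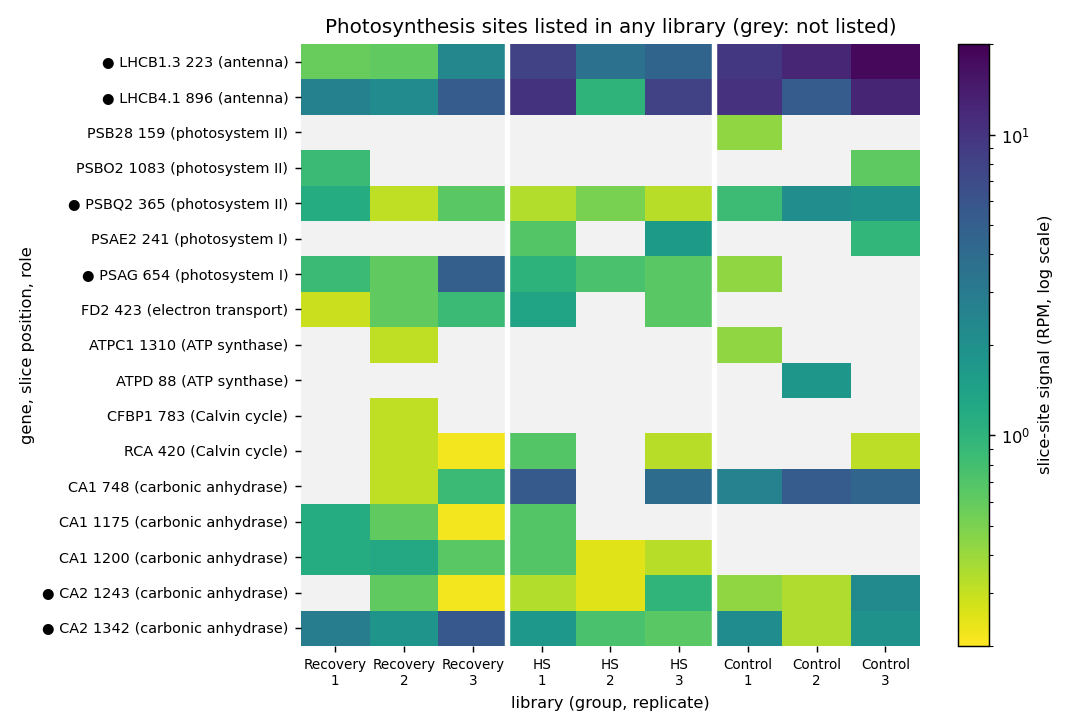
Slice-site signal in RPM (colour, log scale) at the 17 listed sites of the 76 photosynthesis genes, with libraries in columns and sites in rows ordered by role. Dots mark the 6 sites of the 5 genes, grey marks a library that did not list the site, and the miR5658 sites of CA1 at positions 1175 and 1200 are grey in all 3 Control libraries.

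Likeness of pattern was measured over the 9 libraries as the overlap of 2 profiles, each locus being scaled to its own summed RPM, with 100% for identical profiles. Among 72 other loci listed in at least 6 libraries, those most like LHCB1.3 were RAP2.12, an ethylene response factor of oxygen sensing (87.0%), TCTP, a growth regulator (87.0%), and AGO2, an ARGONAUTE (83.6%), against a median of 59.0%. LHCB4.1 was most like HEMC, the porphobilinogen deaminase of tetrapyrrole synthesis (86.5%), AT1G07940 (86.1%) and TCTP (82.3%), against a median of 62.8%. PSBQ2 was most like SAG21, a late embryogenesis abundant protein (84.3%), AT2G11910 (79.9%) and ARF17, an auxin response factor (79.05%), with a median of 57.9%. PSAG was less like any locus, with AT1G63830 (66.5%), SAG24, a ribosomal protein L10 (60.9%), and AT1G22850 (60.5%) ahead of a median of 36.7%. CA2 was most like AT4G23470 (76.1%), the cyclophilin ROC3 (75.8%) and AT1G07930 (72.9%), with a median of 54.5%. Between the genes themselves the overlap was 75.7% for LHCB1.3 with LHCB4.1, 74.5% for LHCB1.3 with PSBQ2, between 65.9% and 67.9% for PSBQ2 with CA2, LHCB4.1 with PSBQ2, LHCB4.1 with CA2 and PSAG with CA2, and lowest, 34.5%, for LHCB1.3 with PSAG. These values describe the libraries at hand, which the loci share, and carry no test.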

How the data were processed

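The authors processed the nanoPARE reads of the 9 Col-0 libraries to 1 list of candidate slice sites per library, with TAIR10 as the genome build named in the submitters' processing notes. Per the study's methods they used the public nanoPARE pipeline, whose version and aligner settings are not given there. The deposited slice-site RPM are reads scaled to library size. The deposited ratio (fold) is slice-site RPM plus 1 over local background RPM plus 1, and the local background was solved from it. The deposited p-value is the authors' adjusted p, the deposited score is the Allen score, and deposited positions are bases of the transcript.

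The commonest RPM of a library was taken as 1 read, which made 89.2% to 94.1% of its values whole within 0.01 of a read. Because the rest were fractional, no count model was fitted. LHCB1.3 local backgrounds were whole in 3 of 9 libraries. Sites not listed were set to 0. limma 3.58.1 (R 4.3.3; lmFit, eBayes with trend) was fitted to log2(RPM + 1) of 322 sites listed in at least 3 libraries, all groups in 1 fit, with Benjamini-Hochberg adjustment over sites and a threshold of 0.05. This scale understates the change of low sites. The fit was tested on simulated data. Replicate numbers came from the titles, and same-numbered libraries did not deviate together. Sites were placed by pairing each miRNA with its transcript, allowing 1 unpaired base and doubling penalties at miRNA bases 2 to 13, in TAIR10.1 with 1-based coordinates. Python 3.11.15, NumPy 2.4.6, pandas 2.3.3 and matplotlib 3.10.9 were used.

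Members, gene lists and tests were chosen with earlier results of these data known. Named genes were the 5 loci at every listed site, other genes of the 76-gene list with a listed site, and for each of the 5 loci the 3 loci of highest profile overlap. Alternatives were pseudocounts of 0.5 and 0.1, other filters, rescaled libraries, a replicate block, sums per locus and leaving out each library.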

Additional observations from a re-analysis of the deposited data

How the results depend on the processing

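Depth limits these values: most listed sites held few reads, p-values rest on 3 libraries per group, and unlisted sites were set to 0. The number of called sites was 16 in HS against Control, 9 in Recovery against Control and 3 in Recovery against HS. With rescaled libraries it was 9 (1 lower, 8 higher, against 5 and 11), 5 (2 lower, 3 higher, against 7 and 2) and 4. A pseudocount of 0.1 gave 30 in Recovery against Control, no filter gave 4 there and 5 in Recovery against HS, and sums per locus gave 5 in Recovery against HS. Leaving out 1 library gave 5 to 16, 1 to 10 and 0 to 16 called sites, with 16 in Recovery against HS without HS replicate 2 and 0 without Recovery replicate 3. For the local background, 3 sites were called in Recovery against Control and 2 in Recovery against HS. Rescaled libraries gave 4 (2 lower, 2 higher, against 3 and 0) in Recovery against Control and 0 in Recovery against HS, and leaving out 1 library gave 1 to 5 and 0 to 5.

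Same-numbered libraries of different groups had correlations of −0.098 to 0.099 of their deviations from the group means, 0 of 9 over 0.1. Differently numbered libraries had correlations of −0.096 to 0.128. No pairing by number was seen, but with few reads per site these correlations cannot exclude it. With a replicate block the site counts were 14, 11 and 3, and those of the local background 1 in Recovery against Control and 0 in Recovery against HS. The block changed no call at the 6 sites, but both local background calls of CA1 position 748 were lost (adjusted p = 0.133 in Recovery against Control and 0.225 in Recovery against HS).

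None of the log2 changes that turned sign was called. With rescaled libraries, LHCB4.1 was 0.14 in Recovery against HS, and the local background in HS against Control was 0.16 at CA2 position 1243 and 0.091 at CA2 position 1342. Leaving out 1 library, the log2 changes in HS against Control ran from −1.19 to 0.050 at LHCB4.1 (positive without HS replicate 2), −0.52 to 0.10 at CA2 position 1243 (positive without Control replicate 3) and −0.60 to 0.0067 at CA2 position 1342 (positive without Control replicate 1). In Recovery against HS, PSAG ran from −0.050 (without Recovery replicate 3) to 0.89. The local background in HS against Control ran from −0.51 to 0.24 at CA2 position 1243 (positive without HS replicate 3, Control replicate 1 or Control replicate 3) and from −0.88 to 0.40 at CA2 position 1342 (positive without HS replicate 1 or Control replicate 1). That of CA1 position 748 in HS against Control, 0.12, was −0.0097 with the replicate block and ran from −0.063 (without Control replicate 2) to 0.29. The cause was not tested. Without Recovery replicate 3 the Recovery mean was 0.746 RPM at PSAG, against 2.15 RPM with it, and 0.600 RPM at LHCB1.3, against 1.195 RPM, and the mean summed RPM of the 5 loci was 7.17, against 11.1.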
